A study of Strongylocentrotus purpuratus with 191 samples.

Results

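Sea urchin embryos (Strongylocentrotus purpuratus, the purple urchin of the Pacific coast) that were raised at 18C to the gastrula stage were compared between their mothers and between their fathers. They made up 64 of the 191 cultures in the series, chosen because their labels give a growth temperature of 18C. The remaining cultures were grown at 12C (64 cultures) or at 15C (63 cultures). The 18C cultures came from 32 crosses of 8 females and 8 males, in 2 blocks called 3 and 4 in the labels. Within a block each of 4 females was crossed to each of 4 males, and each cross was raised as 2 replicate cultures, so that every block held 16 crosses and 32 cultures at 18C. Parents carry a letter and the number of their block, and the same name in both sexes, such as A3, stands for 2 animals. All cultures shared a growth protocol in artificial sea water, the labels name no treatment other than temperature, and the age and origin of the parents were not given in the sources used here. Total RNA was measured by DASL, an Illumina assay in which short oligonucleotides are joined on cDNA, amplified and read on beads, with probes made to order for this panel.

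In a sea urchin gastrula, skeletogenic mesenchyme cells secrete the larval spicules, other mesoderm gives pigment and blastocoelar cells, the archenteron forms the gut, and the ectoderm is divided into oral and aboral sides. The transcription factors, signals and effector proteins behind these territories form a developmental gene network, and most genes of the panel belong to it. An egg brings maternal RNA and protein together with its genes, whereas sperm brings mainly its genes, and by the gastrula stage the genome of both parents is transcribed. In a cross of every female to every male, a difference between females is therefore read over the same males, and a difference between males over the same females.

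The panel gave values for 74 genes from 336 probes, with 2 to 6 probes per gene. Values are on the log2 scale, where 1 unit is a doubling, and probes were averaged to a value per gene. Below, the values of a parent are cross means (of 2 cultures) minus the mean of its block, over its 4 crosses. Arrays of block 3 had a median non-normalized signal of 10.0 ± 0.313 and arrays of block 4 one of 12.2 ± 0.154 (log2, SD, n = 32 arrays each). Each block was measured on a plate of its own, and effects of plate and of block cannot be told apart. The markers taken for the gastrula territories were Endo16 and Gelsolin (gut), SM30-E, Msp130 and tbr (skeletogenic cells), gcm, Fmo2 and gataC (other mesoderm), nodal, gsc and Lim1 (oral ectoderm) and Hnf6 and soxb1 (ectoderm). They lay above the negative controls, from SM30-E at 1.18 ± 0.29 log2 units in block 3 to soxb1 at 5.25 ± 0.16 in block 4 (SD, n = 32 each). Other territory genes lay at the controls, among them Alx1 (-0.00 in block 3 and -0.05 in block 4), Not (-0.03 and -0.22), Otp (-0.09 and -0.22) and notch (0.04 and 0.38). The mean of 10 genes in block 3 and of 5 in block 4 lay less than 1 log2 unit above the controls, and none of the probes of 6 genes was detected in most cultures of both plates. The labels do not say whether the 2 cultures of a cross were separate fertilizations, so all tests of parents used the cross means. RNA came from whole cultures, so fewer cells of a type and less RNA per cell cannot be told apart.

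The developmental stage of the cultures at 18C differed between mothers and not detectably between fathers. The labels give each culture a mean stage score on a scale that is not stated. In block 3 the 4 crosses of female B3 scored 0.370, 0.445, 0.447 and 0.465. The crosses of the other females of that block ran from 0.239 to 0.354. Female B3 thus stood above the rest of her block with no overlap. In block 4 the crosses of female D4 scored 0.444, 0.475, 0.478 and 0.551, against a highest value of 0.410 among the other females, again with no overlap. Means of females were 0.282 ± 0.0407 (A3), 0.432 ± 0.0421 (B3), 0.310 ± 0.0380 (C3) and 0.302 ± 0.0452 (D3) in block 3 (SD, n = 4 crosses). In block 4 they were 0.347 ± 0.0164 (A4), 0.378 ± 0.0319 (B4), 0.331 ± 0.0117 (C4) and 0.487 ± 0.0455 (D4). The exact permutation test over both blocks gave p = 0.00012 for females (0.000961 adjusted over 8 tests of stage, sampling time and panel level). Male means lay between 0.322 and 0.337 in block 3 and between 0.372 and 0.405 in block 4, with an exact permutation p of 0.858. Females accounted for 58.4% of the variance of the score within blocks and differences between the cultures of a cross for 41.6%, with the estimates for males and for pairs of parents at 0.

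**Figure D1:**
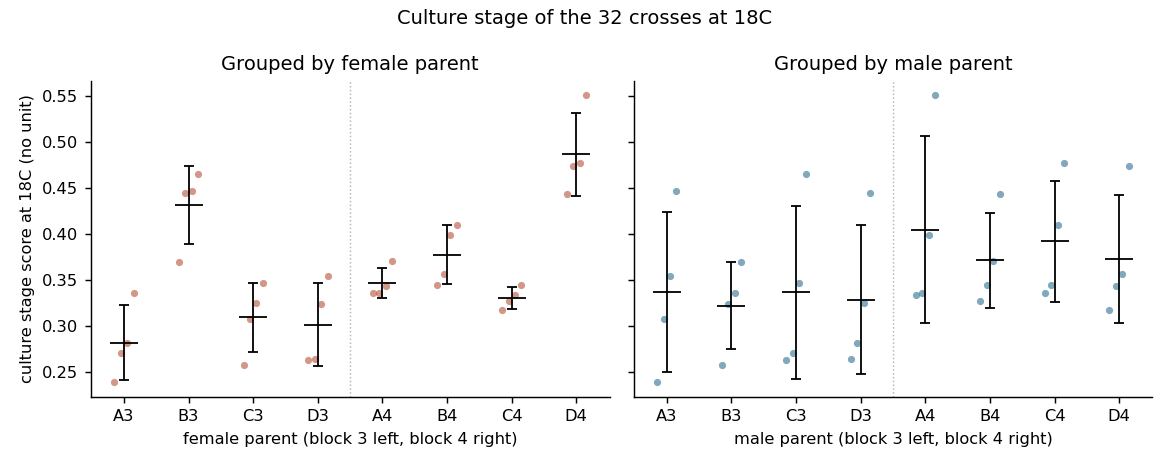
Culture stage score (vertical axis, no unit) of the 32 crosses at 18C, grouped by female parent (left) and by the male parent of the same crosses (right). Points are means of 2 cultures, and bars are the mean ± SD of the 4 crosses of a parent. Females B3 (0.432) and D4 (0.487) stand above the others of their block, and the males of a block do not separate.

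The sampling time at 18C ran from 22.5 to 23.8, in a unit the labels do not state. Crosses of females C3 and C4 were sampled at means of 23.1 and 22.8, and those of males D3 and D4 at 23.1 and 22.8, earliest in their blocks. Exact permutation tests gave p = 0.0737 between females and 0.0564 between males (0.147 adjusted for each). Adjusting the stage score for sampling time left the female effect at an exact permutation p of 4.3e-05. A change of the females' stage scores relative to each other between 18C and the mean of 12C and 15C was not detectable, with an exact permutation p of 0.0949 (0.152 adjusted).

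Expression of 11 of the 74 genes (14.9%) differed between mothers at 18C. These were gcm, deadringer, Erg, Wnt8, SM30-E, P16, snail, Hex, C-lectin, Cog1 and Nk1. The test was limma's moderated F test on the 32 cross means, with females and males within blocks as terms, 18 residual degrees of freedom and p adjusted by Benjamini-Hochberg over all genes, and a gene was called at an adjusted p below 0.05. Without adjustment 26 genes had p below 0.05. Among the called genes the highest female of a block stood above the lowest by a median of 1.36-fold in block 3 and 1.37-fold in block 4, against 1.12-fold and 1.18-fold over all genes. The 4 crosses of the highest and of the lowest female did not overlap in block 3 for 7 of the 11 genes, where 17.6% of all genes showed that, and in block 4 for 4 of the 11, against 21.6% of all genes. Female B3, whose cultures scored furthest in stage, was highest for 6 of the 11 genes in block 3, and over the whole panel for 38 of 74 genes. Female C4 was lowest for 7 of the 11 in block 4, and for 45 of 74 over the panel.

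gcm, the transcription factor gene that specifies pigment cells, had the largest F between females (10.5, limma adjusted p = 0.000843). In block 3 the 4 crosses of female A3 stood at 0.06, 0.36, 0.43 and 0.66 and those of female B3 at 0.05, 0.23, 0.28 and 0.53. The crosses of female C3 stood at -0.61, -0.47, -0.28 and 0.09, and those of female D3 at -0.86, -0.45, -0.14 and 0.12. Offspring of A3 and B3 were thus high and those of C3 and D3 low, with 1 cross of C3 and 1 of D3, both with male C3, reaching into the range of the others. The highest and lowest females differed by 0.71 ± 0.12 (SE), or 1.63-fold, in block 3. In block 4 the difference was 0.35 ± 0.12 (1.28-fold), from A4 at 0.19 ± 0.14 to C4 at -0.16 ± 0.18 (SD, n = 4), with overlapping crosses. Fitted alone, block 4 did not give a call for gcm (limma adjusted p = 0.126), while the call held without any single parent.

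The difference in gcm was uneven along the gene. Its 3 probes in exon 6 differed between females A3 and D3 by 1.63, 1.57 and 0.78 log2 units, and its 3 probes in exons 1 and 2 by 0.01 to 0.12. The exon number is the one in the deposited probe names. Of the exon 1 and 2 probes, 2 were detected in 100% of the block 3 cultures and the third in 6.25%. Probes 5366 and 4086 of exon 6, whose values carried most of the difference, are shown with probe 4022 of exon 2, which differed by 0.12, and the probes of tbr and deadringer described further on are shown with them. These probes were chosen after their values were seen. Sequences are 5′ to 3′ as deposited, and no genome of a matching build was used here, so they carry no coordinates.
gcm probe 5366: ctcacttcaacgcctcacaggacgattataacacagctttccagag
gcm probe 4086: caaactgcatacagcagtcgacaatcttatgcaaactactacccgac
gcm probe 4022: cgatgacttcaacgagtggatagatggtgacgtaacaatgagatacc
tbr probe 656: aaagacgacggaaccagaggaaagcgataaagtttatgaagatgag
tbr probe 1893: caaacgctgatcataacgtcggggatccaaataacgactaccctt
tbr probe 178: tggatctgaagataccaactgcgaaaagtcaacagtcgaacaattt
deadringer probe 5297: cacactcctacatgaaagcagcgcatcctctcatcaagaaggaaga
None of the 6 gcm probes shared a run of more than 9 bases with another, so they read separate stretches of the transcript. Tested alone over all 336 probes, 21 probes (6.25%) were called between females, and probe 4086 had the largest F among those of the called genes (27.5).

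Probe 5366 of gcm fell in certain pairs of parents rather than in all offspring of a female. In block 3 its value was -2.10 in the cross of female C3 with male B3 and -2.18 with male D3. It was -2.59 in the cross of female D3 with male B3 and -1.49 with male D3. The other 12 crosses of the block stood between 0.38 and 1.30, including the crosses of C3 and D3 with males A3 and C3. Both cultures of each of the 4 low crosses were low, from -2.85 to -1.12. The same 4 crosses stood between -2.21 and -1.87 at 12C and between -2.31 and -2.09 at 15C, in cultures that are separate from those at 18C. Probe 4086 was also lowest in the same 4 crosses, at -1.60 to -0.92. With male A3 it stood at -0.90 for C3 and -0.53 for D3, and with male C3 at -0.11 and 0.18. Without probe 5366 and the 3 other probes that showed such a departure, gcm was still called between females (limma adjusted p = 0.0012) and no longer between males (0.0524).

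**Figure D2:**
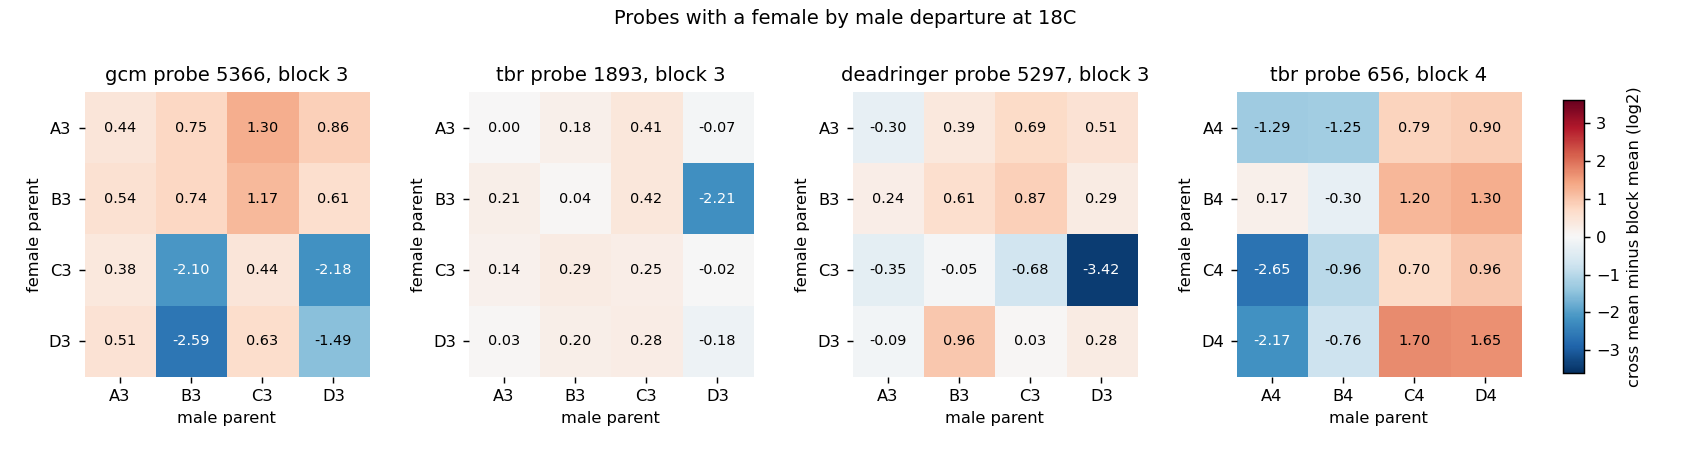
Values at 18C (colour and printed number, cross mean minus block mean in log2) of the 4 probes whose values departed from the sum of female and male effects, for the 16 crosses of 1 block each, with females in rows and males in columns. The gcm probe is at -2.59 to -1.49 in 4 crosses and above 0 in the other 12, while tbr probe 1893 and the deadringer probe are low in 1 cross each.

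deadringer, an ARID-class factor first of skeletogenic cells and later of oral ectoderm, differed between females with F = 8.84 (limma adjusted p = 0.00155). The crosses of female C3 stood at -0.70, -0.40, -0.29 and -0.16, below all 4 crosses of female B3 at 0.13, 0.14, 0.35 and 0.50. The difference between these females was 0.67 ± 0.10 (1.59-fold). In block 4 the crosses of C4, from -0.34 to -0.06, lay below those of B4, from -0.02 to 0.21, a difference of 0.22 ± 0.10 (1.16-fold). All 6 probes put B3 above C3, from 0.27 to 1.63, and 3 of them were called alone. The widest was probe 5297, which stood at -3.425 in the cross of female C3 with male D3. In the other crosses of C3 it stood between -0.68 and -0.05. The difference of 0.67 between the females includes this probe. The call was lost without female C3, and it held without probe 5297 (limma adjusted p = 0.00121).

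Erg, an ETS-family factor gene of the skeletogenic mesenchyme, had F = 8.42 between females (limma adjusted p = 0.00155). The crosses of female B3 stood at 0.19, 0.22, 0.43 and 0.59 and those of female D3 at -0.41, -0.25, -0.19 and -0.12. B3 was thus above D3 with no overlap, by 0.60 ± 0.11 (1.52-fold). In block 4 female D4 (0.17 ± 0.28) and female C4 (-0.29 ± 0.19, SD, n = 4) differed by 0.46 ± 0.11, with overlap. The 2 females with the highest Erg, B3 and D4, were also those with the highest stage scores. With the stage score in the model Erg was no longer called (limma adjusted p = 0.0917). The 4 Erg probes all showed the difference in both blocks, from 0.15 to 1.26, and only the probe in exon 1 was called alone.

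Wnt8, a Wnt ligand that acts in the specification of endomesoderm, showed the opposite order in block 3. Its crosses stood at 0.06, 0.19, 0.20 and 0.33 for female C3 and at -0.15, -0.10, -0.09 and -0.02 for female B3 (F = 7.27, limma adjusted p = 0.00308). C3 was above B3 with no overlap, by 0.28 ± 0.09 (1.22-fold). In block 4 the crosses of B4, from 0.10 to 0.45, were above those of C4, from -0.45 to 0.05, by 0.48 ± 0.09 (1.39-fold). All 4 probes had the same sign in both blocks. The call was lost without female B4.

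SM30-E, which encodes a protein of the spicule matrix, was called between females (F = 7.13, limma adjusted p = 0.00308) and between males. Its lowest female was D4, with crosses at -0.73, -0.30, -0.27 and 0.01, against -0.01, 0.07, 0.25 and 0.27 for A4. The crosses of D4 and A4 overlapped, and the difference of means was 0.46 ± 0.10 (1.38-fold). In block 3 females D3 and C3 differed by 0.33 ± 0.10 (1.26-fold), with overlap. The female call of SM30-E was lost without D4, the female of block 4 with the highest stage score, and with stage in the model. SM30-E probe 2208 was detected in 0% of the cultures of both blocks. Probe 651, which differed by 0.70 in block 4, was detected in 9.38% of the cultures there. From detected probes alone SM30-E was still called between females. P16, a gene of a membrane protein of skeletogenic cells needed for spicule growth, had the widest female difference of block 3 among the called genes. Female C3 stood at 0.36 ± 0.13 and female A3 at -0.54 ± 0.22 (SD, n = 4), 1.86-fold apart with no overlap (limma adjusted p = 0.00795). The 3 P16 probes differed between these females by 0.37 to 1.36. The P16 call held under 13 of the 19 alternative settings. It was lost when female A3, male B3 or male C3 was left out. C-lectin, a C-type lectin gene, was highest in B3 at 0.26 ± 0.09 and lowest in A3 at -0.22 ± 0.10, with no overlap (limma adjusted p = 0.0431). That call was lost without either of these females and without each of 5 males.

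Of the other genes called between females, snail, a repressor active when skeletogenic cells ingress, was lowest in C4 at -0.37 ± 0.08 and highest in A4 at 0.20 ± 0.21, 1.48-fold apart with no overlap (limma adjusted p = 0.00795). Its 2 probes with the widest difference in block 4 were detected in 53.1% and 31.2% of the cultures there, and snail was not called from detected probes alone (limma adjusted p = 0.0655). Hex, a homeobox gene of the skeletogenic network, had the widest difference of any called gene in block 4, from B4 at 0.40 ± 0.52 to D4 at -0.50 ± 0.27, but the crosses overlapped and its 3 probes differed by -0.11, 1.02 and 1.80. The 2 Hex probes with the difference were detected in 53.1% and 15.6% of the block 4 cultures, and Hex was not called from detected probes alone either (limma adjusted p = 0.477). Cog1 was highest in A3 (0.33 ± 0.22) and D4 (0.33 ± 0.26) and lowest in C3 and C4, without overlap in either block (limma adjusted p = 0.0445). Nk1, a homeobox gene of the ectoderm, was highest in B3 and B4 and lowest in C3 and C4, by 1.23-fold and 1.28-fold (limma adjusted p = 0.0445). Females C3 and C4, the lowest for Cog1 and Nk1, were also those sampled earliest in their blocks. With sampling time in the model neither Cog1 nor Nk1 was called, and the cause was not tested. Cog1, Nk1 and C-lectin were those nearest the threshold. C-lectin kept its call under 10 of the 19 alternative settings, snail under 9, Nk1 under 8 and Cog1 under 6.

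**Figure D3:**
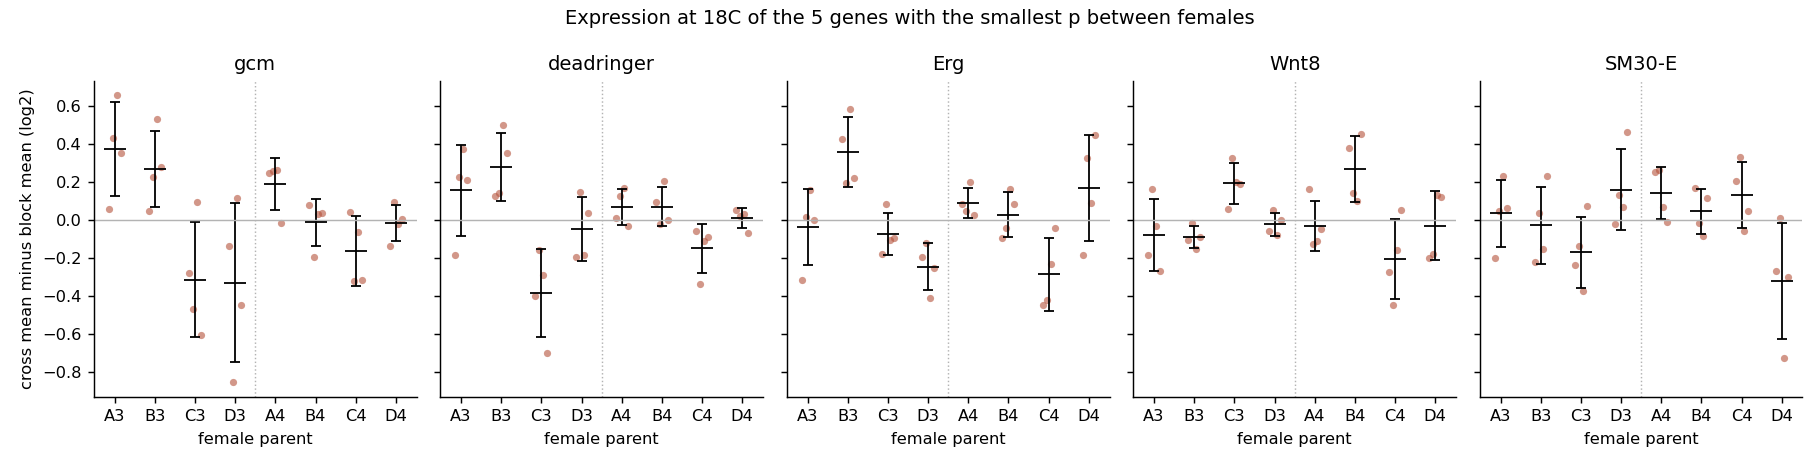
Expression at 18C (cross mean minus block mean, log2) of the 5 genes with the smallest p between females, by female parent, with block 3 left and block 4 right of the dotted line in each panel. Points are the 4 crosses of a female and bars their mean ± SD. gcm is high in A3 and B3 and low in C3 and D3, and Wnt8 is highest in C3 and B4.

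With the stage score as a covariate 5 genes were called between females, namely gcm, deadringer, Wnt8, P16 and Hex. The genes whose calls were lost were Erg, SM30-E, snail, C-lectin, Cog1 and Nk1. With the median of each array removed 18 genes were called. From 1 culture per cross, 3 genes were called without replicate 1 and 1 gene, gcm, without replicate 2. Stage and female moved together at 18C, and how much of the lost calls belongs to either cannot be told apart in this design.

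Expression of 12 of the 74 genes (16.2%) differed between fathers at 18C. They were tbr, ficolin, C-lectin, Pmar1, gataC, SoxC, SM30-E, Ets1, SpColl-ColAlpha, Lhx2, gcm and SM50. The test was the same limma F test, and 26 genes had p below 0.05 without adjustment. The next gene was Gsk-3, the kinase of the Wnt pathway, at an adjusted p of 0.0501. The highest male of a block stood above the lowest by a median of 1.22-fold in block 3 and 1.30-fold in block 4 over the called genes, against 1.16-fold and 1.17-fold over all genes. Crosses of the highest and lowest male did not overlap for 3 of the 12 genes in block 3 (17.6% of all genes) and for 8 of the 12 in block 4 (23% of all genes). Males C3 and C4 recurred: C3 was highest for 9 of the 12 genes, and C4 was lowest for 8.

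Over the whole panel, male C3 was also the most often highest of its block and male C4 the most often lowest. Male B4, lowest for 25 genes at a panel level of -0.04 ± 0.09 (SD, n = 4), stood near C4. Male C3 was highest for 55 of the 74 genes and male A3 lowest for 60, and in block 4 male D4 was highest for 35 and C4 lowest for 36. The panel level, the median over genes of a cross, was 0.10 ± 0.12 for male C3 and -0.07 ± 0.09 for male A3, and 0.04 ± 0.04 for D4 and -0.06 ± 0.07 for C4 (SD, n = 4). The exact permutation test of the panel level gave p = 0.0543 between males (0.147 adjusted) and 0.251 between females (0.334 adjusted). With each array's median removed, 5 genes were called between males. Without male C4, 1 gene was called, and it was tbr. From 1 culture per cross, 2 genes were called without replicate 1 and 0 without replicate 2 (limma, 16 genes with p below 0.05).

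tbr, the T-box factor gene of the skeletogenic cells, had the largest F between males (8.37, limma adjusted p = 0.00485). In block 3 the crosses of male D3 stood at -0.26, -0.24, -0.09 and -0.08 and those of male C3 at -0.00, 0.03, 0.19 and 0.23. These did not overlap, and the difference was 0.28 ± 0.08 (1.22-fold). In block 4 the crosses of male A4 stood at -0.43, -0.33, -0.23 and 0.17 and those of male D4 at 0.10, 0.18, 0.20 and 0.33, a difference of 0.41 ± 0.08 (1.32-fold) with overlap. The call for tbr held without each of the 16 parents in turn.

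The tbr difference was uneven along the gene too, and the probes behind it were in exon 1. In block 4, probe 656 was 2.69 log2 units (6.43-fold) higher in offspring of male D4 than of male A4. Its 8 crosses with males C4 and D4 stood between 0.70 and 1.70, and its 8 crosses with males A4 and B4 between -2.65 and 0.17. The other 5 tbr probes differed between D4 and A4 by -0.22 to 0.15. At 12C and 15C the same probe differed between D4 and A4 by 2.84 and 2.82. In block 3 the widest difference between C3 and D3, 0.96, was that of probe 1893, followed by probe 1955 of exon 4 at 0.41. Probe 1893 stood at -2.21 in the cross of female B3 with male D3, at -2.39 and -2.03 in its cultures, and between -0.18 and 0.42 in the other 15 crosses of block 3. That cross stood at -1.67 at 12C and -2.54 at 15C. Probe 178, also in exon 1, differed between the highest and lowest males by 0.03 in block 3 and 0.01 in block 4. Without the probes that showed a departure tbr was not called between males (limma adjusted p = 0.303), and from the median of its probes it was not called either.

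Pmar1, the paired-class homeobox repressor that starts the skeletogenic program, was higher in offspring of male C4 than of male A4. The crosses of C4 stood at 0.08, 0.19, 0.43 and 0.50 and those of A4 at -0.35, -0.31, -0.29 and -0.07, with no overlap and a difference of 0.55 ± 0.13 (1.47-fold, limma adjusted p = 0.0146). In block 3 males A3 and B3 differed by 0.42 ± 0.13, with overlap. Male C4, low for most called genes, was thus the high male for Pmar1. The 6 Pmar1 probes are 3 named Pmar1a-b and 3 named Pmar1c-d in the deposited table. The 2 probes called alone are both of Pmar1a-b. Probe 1590 of Pmar1c-d, detected in 0% of the cultures, ran the other way, at -0.43 between C4 and A4. Probes 442 and 4111 of Pmar1 have the same sequence and entered its mean as 2 probes, and they differed between C4 and A4 by 0.37 and 0.11.

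The gene gataC, which encodes a zinc-finger factor of the non-skeletogenic mesoderm, was lowest in offspring of male C4, at -0.54, -0.46, -0.22 and -0.06, and highest in those of male D4, at -0.00, 0.03, 0.41 and 0.43. The 2 males did not overlap and differed by 0.54 ± 0.12 (1.45-fold, limma adjusted p = 0.0146). Its probes differed by 0.02 to 1.64 in block 4, and the call was lost with array medians removed and from detected probes alone (limma adjusted p = 0.0636 for the latter). SoxC, a Sox-family factor gene, was lower in offspring of male C4, from -0.17 to -0.11, than of male A4, from -0.01 to 0.19, and in block 3 male A3 was lowest at -0.23 ± 0.10. All 4 SoxC probes were of one sign in both blocks and the call had an adjusted p of 0.0146 by limma. The SoxC call held under 11 of the 19 alternative settings and in neither block alone. It was also lost when female A3, female C4, male A3 or male C4 was left out.

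SM30-E was higher in offspring of male D3 (0.21 ± 0.19) than of male A3 (-0.17 ± 0.10, SD, n = 4), 1.30-fold apart with no overlap, and differed by 1.27-fold between males B4 and C4 with overlap (limma adjusted p = 0.0158). The male call of SM30-E held under 11 of the 19 alternative settings and for 10 of the 16 parents left out in turn. C-lectin was lowest in offspring of male C4, with crosses at -0.61, -0.43, -0.21 and -0.04, and highest in those of A4, at 0.07, 0.27, 0.28 and 0.29, a 1.47-fold difference with no overlap. In block 3 its males differed by 1.11-fold with overlap. The 5 C-lectin probes differed between A4 and C4 by -0.04 to 1.55. Probe 5104, the widest, differed by 0.21 at 12C and 0.225 at 15C. The male call of C-lectin held under 9 of the 19 alternative settings. It was lost when male C4, female A4 or female B4 was left out. Among the settings that lost it were array medians removed and the median of probes. ficolin was called between males (limma adjusted p = 0.014) although its mean level relative to the negative controls was -0.02 ± 0.10 (log2, block 3) and 0.26 ± 0.31 (block 4; SD, n = 32 cultures each). None of its 5 probes was detected in most cultures. Lhx2, a LIM-homeobox gene, had no probe detected in most cultures of both plates, and Ets1, an ETS factor gene of skeletogenic cells, had 1 of 5.

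The remaining male calls lay near the threshold. Ets1 was higher in D4 than C4 (limma adjusted p = 0.0441), but 4 of its 5 probes were not detected in most cultures, among them the 1 probe called alone (detected in 0%). From detected probes alone Ets1 was not called (limma adjusted p = 0.193), and no fold is given. Its difference in block 3, 0.18 between C3 and A3, was -0.00 with array medians removed. SpColl-ColAlpha, a collagen gene, was highest in C3 and D4 and lowest in A3 and C4, by 1.35-fold and 1.24-fold (limma adjusted p = 0.0469). SM50, a spicule matrix gene, was higher in C3 than A3 by 1.21-fold and in A4 than C4 by 1.24-fold (limma adjusted p = 0.0478). Lhx2 was higher in A4 than B4 (limma adjusted p = 0.0473), but its probes were detected in 3.12% and 53.1% of the block 4 cultures and in 0% and 40.6% of those of block 3, so no fold is given. gcm, called also between males (limma adjusted p = 0.0478), was highest in male C3 at 0.35 ± 0.29 and lowest in B3 at -0.17 ± 0.60, with overlap. The calls of Ets1, SpColl-ColAlpha, SM50, Lhx2 and gcm between males each held in 4 or fewer of the alternative settings.

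**Figure D4:**
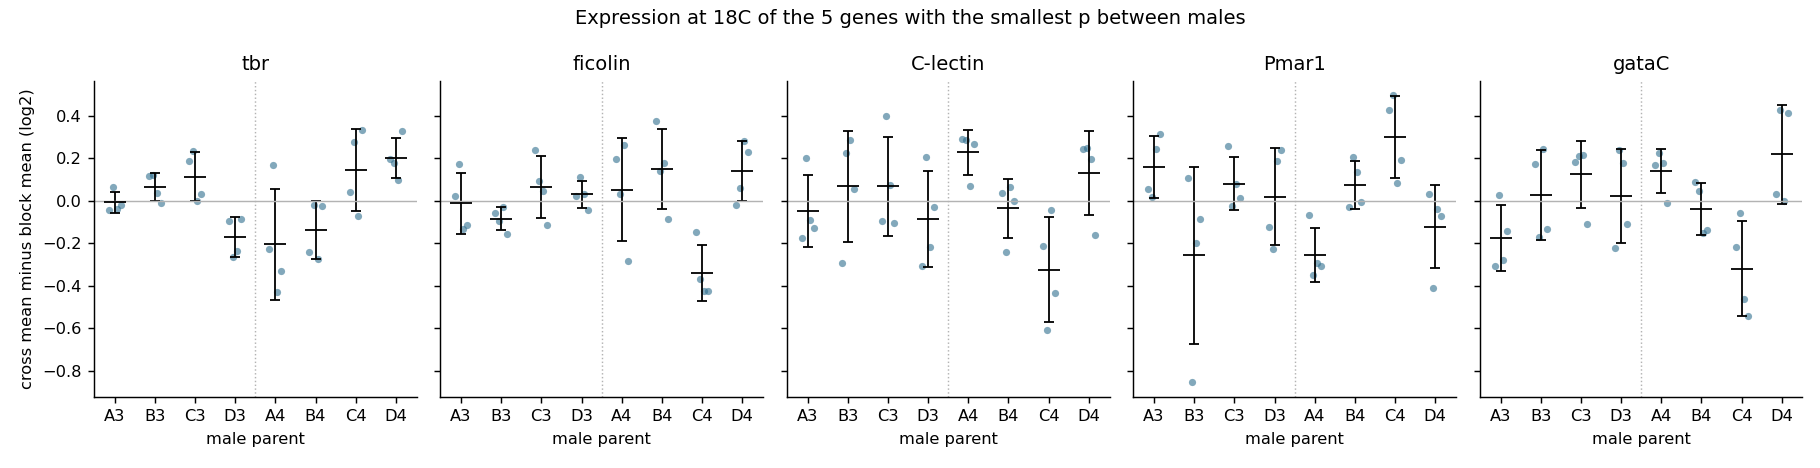
Expression at 18C (cross mean minus block mean, log2) of the 5 genes with the smallest p between males, by male parent, with block 3 left and block 4 right of the dotted line in each panel. Points are the 4 crosses of a male and bars their mean ± SD. Male C4 is lowest for ficolin, C-lectin and gataC and highest for Pmar1.

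Single probes of a called gene often did not move together. Of the 59 probes of the 12 genes called between males, 9 were called alone, and 5 of the genes had no such probe. Of the 49 probes of the 11 genes called between females, 9 were called alone, and 5 genes had none. Over all 336 probes, 19 (5.65%) were called between males. Every probe had the sign of its gene in both blocks for 7 of the 11 female genes and 6 of the 12 male genes. The parents compared were picked from the mean of the same probes, so probes lean to that sign. These counts, and the probe signs given for single genes above, therefore carry no test. When the probe with the smallest p was left out of each gene, a choice that works against every call, 7 genes were called between females and 0 between males by limma (17 genes with p below 0.05). gcm, deadringer, Erg, Wnt8, SM30-E and snail were among the 7.

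**Figure D5:**
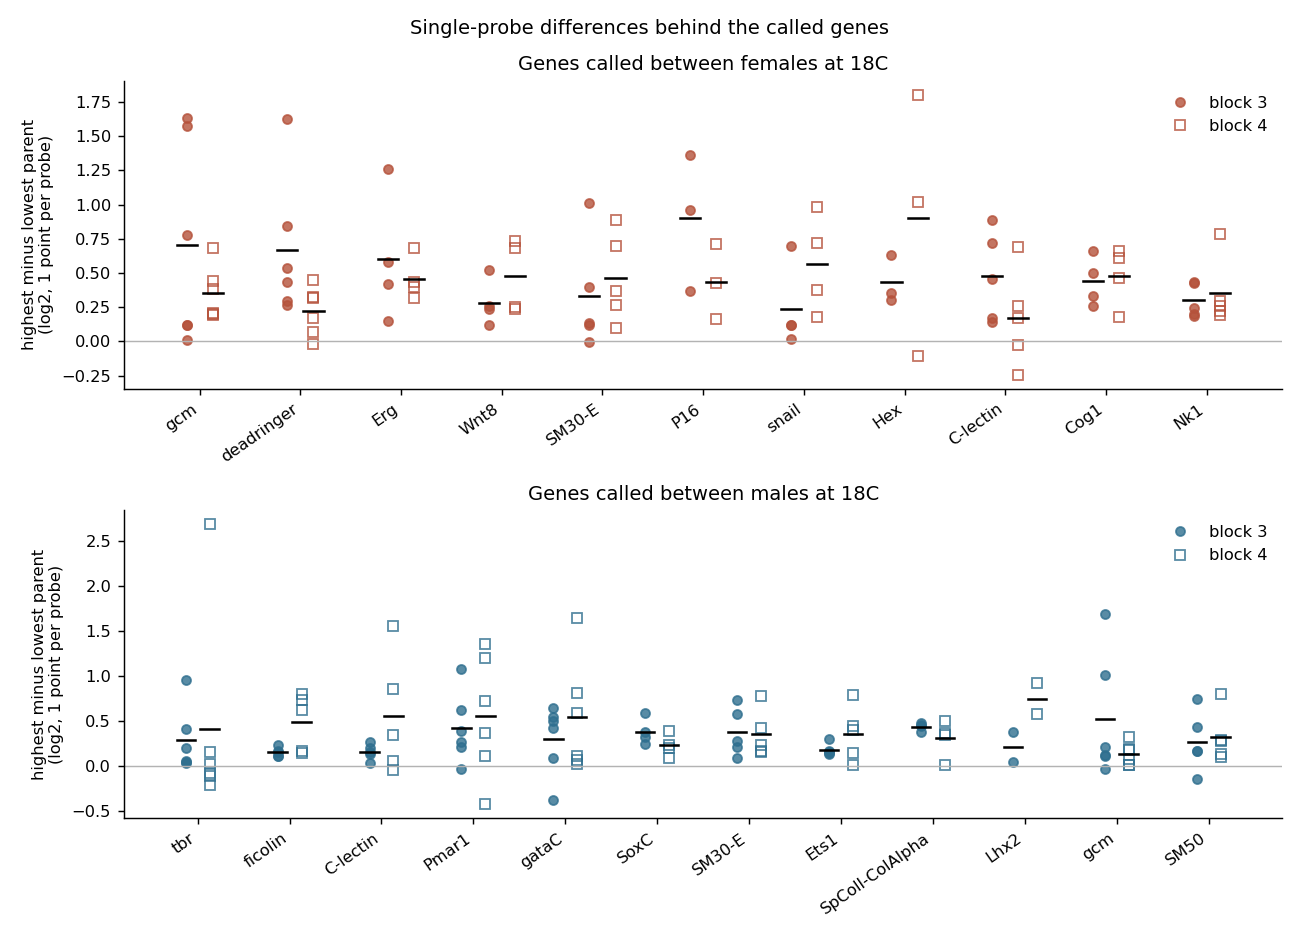
Difference between the highest and the lowest parent of a block (log2, vertical axis), 1 point per probe, for the genes called between females (top) and between males (bottom), with filled circles for block 3, open squares for block 4 and bars for the mean of the probes. The tbr mean of block 4 rests on 1 probe at 2.69, and the gcm mean of block 3 between females on probes at 1.63, 1.57 and 0.78.

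By role, counts of called genes were read against the 14.9% of all genes called between females and the 16.2% called between males. Of 15 measured regulators of the skeletogenic program, 4 were called between females (Erg, Hex, deadringer and snail) and 3 between males (Pmar1, Ets1 and tbr). Their median F was 2.44 and 2.70, against 1.66 and 1.81 over all 74 genes. Of 14 effectors of skeleton and matrix, 3 were called between females (SM30-E, C-lectin and P16) and 5 between males (SM30-E, SM50, C-lectin, ficolin and SpColl-ColAlpha), with a median F of 1.71 and 2.55. Of 4 pigment and other mesoderm genes, gcm was called for both parents and gataC between males. Nothing particular to a list is read from these counts. The lists were chosen with earlier results of the same cultures known, and their counts are a description.

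No regulator of endoderm was called for either parent among 8 measured, a list in which the share of the whole panel gives about 1 call. Their median F was 2.09 between females, above the 1.66 of all genes, and 1.39 between males, below the 1.81 of all genes. FoxA, a gut factor gene, had the largest p of the list on both sides (adjusted p by limma 0.467 and 0.798). None of the 3 gut effectors was called, with a median F of 2.68 and 2.29 and with Endo16, a gut surface protein gene, at an adjusted p by limma of 0.222 and 0.310. Of 11 genes of oral ectoderm deadringer and Nk1 were called between females and none between males. The 3 aboral ectoderm genes, the 4 genes of the Delta-Notch pathway and the 4 genes of Nodal and BMP signalling gave no call for either parent, with median F values from 1.13 to 1.62, but with so few genes the share of the panel gives less than 1 call in each. Of 6 Wnt pathway genes Wnt8 was called between females, and of 4 genes of ciliary band, apical and other ectoderm Lhx2 was called between males. The measured genes with the largest p were Alx1 (0.974) between females and Pax2-5-6 (0.930) between males, and Alx1, a skeletogenic homeobox gene, lay at the level of the negative controls.

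gcm, SM30-E and C-lectin were the 3 genes called for both parents, and 20 genes were called for either. No gene was called for a departure of single crosses from the sum of female and male effects (0% of 74; 6 genes with p below 0.05 by limma, 18 against 32 degrees of freedom). The gene with the smallest p was brn1-2-4, a POU factor gene of the gut (adjusted p = 0.229). Among single probes 4 of 336 (1.19%) were called: tbr probe 1893 and gcm probe 5366 (both 4.09e-07), deadringer probe 5297 (0.000914) and tbr probe 656 (0.0022), all by limma. Probe 5297 of deadringer stood at -3.57 and -3.28 in the 2 cultures of female C3 with male D3. The other 15 crosses of block 3 stood between -0.68 and 0.96. At 12C and 15C that cross stood at -3.17 and -3.81. In block 4 the same probe stood between -0.24 and 0.46 in all 16 crosses.

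The parental differences at 18C were set beside those at the cooler temperatures, measured in other cultures of the same crosses. The same test called 16 genes between females at 12C (21.6%) and 34 at 15C (45.9%), and 7 between males at each of 12C and 15C (9.46% and 9.46%). Of the 11 genes called between females at 18C, 4 were called at 12C, 6 at 15C and 2 at neither. Of the 12 called between males, 4 were called at 12C, 3 at 15C and 7 at neither. tbr had the smallest male p values at the cooler temperatures too, with a limma adjusted p of 1.29e-06 at 12C and 0.000166 at 15C. A call at 1 temperature and none at another does not show a difference, so the difference itself was tested.

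No gene was called for a female effect that differed between 18C and the mean of 12C and 15C (0%; limma, 11 genes with p below 0.05), nor for a male effect that differed (0%; 3 genes with p below 0.05). The smallest p belonged to SM30-E for females (adjusted p by limma 0.138) and to ficolin for males (0.639). Female D4, lowest for SM30-E at 18C (-0.32 ± 0.31, SD, n = 4), stood at -0.11 at 12C and 0.04 at 15C. Male C4, lowest for ficolin at 18C (-0.34 ± 0.13, SD, n = 4), stood at -0.02 at both.

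The order of the extreme parents mostly recurred at the cooler temperatures. The highest female of block 3 at 18C was above the lowest in the mean of 12C and 15C for 10 of the 11 called genes, against 70.3% of all genes, and in block 4 for 8 of the 11, against 85.1%. For males the order recurred for 12 of the 12 called genes in each block, against 93.2% and 89.2% of all genes. For males, and for females in block 4, these shares are near those of the whole panel. The differences were smaller: the median over the female calls was 0.44 in block 3 and 0.46 in block 4 at 18C, and 0.24 and 0.09 in the mean of 12C and 15C. For male calls it was 0.29 and 0.38 at 18C, and 0.205 and 0.11 in that mean. Parents were picked as extremes at 18C, so a smaller difference elsewhere carries no test. For gcm, female A3 stood at 0.23 at 12C and 0.22 at 15C, and female D3 at -0.31 and -0.30.

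For the median gene, differences between the 2 cultures of a cross made up 70.5% of the variance within blocks at 18C, females 7.09%, males 10.6% and pairs of parents 4.82%. The female share was 49.9% for gcm and 48.7% for deadringer, the largest among the called genes. The male share was 47.9% for tbr and 41.1% for SoxC. The share between cultures of a cross was lowest among the called genes for gcm (23.0%) and tbr (27.0%). These are shares of each gene's own variance, not amounts of variation. The median SD between the 2 cultures of a cross was 0.19 log2 units.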

How the data were processed

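RNA of the 64 cultures at 18C was measured on 2 plates of an Illumina DASL panel. The deposited non-normalized values hold 384 gene probes. The normalized values hold 336 probes for 74 genes, and only these were tested. BeadStudio is the tool given, per the submitters' processing notes, and the normalization method is not given in the sources used here. The authors deposited normalized log2 values, scaled per the file headers and with every probe centred on 0 within a plate, as the values show, so a value is relative to its plate and levels of different genes cannot be compared. The non-normalized table, also deposited by the authors and read as log2 intensity from its range (7.17 to 14.7), served for array medians, for levels above the 27 negative controls and for detection. A probe counted as detected in a culture when its signal lay above all but a share of 0.05 of those controls, and 1 deposited array column that belongs to no sample was left out. Reading was limited by signal over background, and the number of crosses limits the precision.

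Probes were averaged per gene and replicate cultures per cross. Effects of block, female within block and male within block were fitted to the 32 cross means with limma 3.58.1 in R 4.3.3 (18 residual degrees of freedom), with Benjamini-Hochberg adjustment over all 74 genes and a threshold of 0.05. Departures of crosses were tested on the 64 cultures against 32 degrees of freedom, single probes over all 336 probes, and temperature by the difference of each cross at 18C from its mean at 12C and 15C. Variance shares came from mean squares. Stage score, sampling time and panel level were tested by exact permutation. Cross values were exchanged between the parents of the tested sex, separately within each parent of the other sex (13824 arrangements per block). The test was two-sided in the sense that any spread between parents counts. The arrangements were enumerated with numpy 2.4.6, and scipy 1.17.1 gave the Benjamini-Hochberg adjustment of these tests. The fits were tested on simulated data. No p-value covers more than the spread between these crosses.

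The members and lists were chosen with earlier results of these data known. Genes named were, for each parent, the up to 10 smallest p past the threshold, of each list the up to 2 called members with the smallest p and the uncalled member with the largest, and for departures and temperature differences the smallest p. Called genes beyond these, Gsk-3 beside the male threshold, Not among the genes at the level of the controls, and all single probes were chosen after their values were seen. Of the panel's gene names, 26 match a RefSeq symbol or synonym. Replicate numbers did not pair the cultures: the correlation of replicate 1 minus replicate 2 between crosses had a median of 0.03 in block 3 and 0.02 in block 4 (120 pairs each). The alternatives were other normalizations, other summaries of probes, covariates, single blocks, and left-out replicates, parents and probes.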

Additional observations from a re-analysis of the deposited data

Results flagged for a closer look

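In 10 of 140 groups of 4 crosses of a parent, 1 cross stood far from the other 3. The 140 hold the groups of every parent for stage score, sampling time and panel level. They also hold the groups of the highest and lowest parents for each called gene. All 10 flagged groups were of called genes, so their share among the gene groups alone is higher than 10 of 140. The gap to the nearest cross, as a share of the group's whole range, is given for each, and chance alone flags about 1 in 20 groups. For gcm the share was 0.955 among the crosses of female A4, where 3 crosses stood at 0.25 to 0.26 and 1 at -0.02, and 0.846 among those of male D4. For P16 it was 0.946 among the crosses of female A4, with 1 cross at -0.24 and the others at 0.32 to 0.35. For gataC it was 0.912 among the crosses of male C3, with 1 cross at -0.11 and the others at 0.18 to 0.21. For C-lectin it was 0.899 among the crosses of male A4 and 0.871 among those of female B3. For SM50 it was 0.898 among the crosses of male C3. For Hex it was 0.84 among the crosses of female D3. For Ets1 it was 0.836 among the crosses of male D4. For SM30-E it was 0.83 among the crosses of male A3. In the groups of female A4 for gcm and P16 and of male C3 for gataC, the cross that stood apart was the one that overlapped with the lowest parent of the block.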

How the results depend on the processing

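The female effect on stage kept its side of the threshold under every alternative tried. The exact permutation p was 4.3e-05 to 0.0143 when adjusted for sampling time, in single blocks and with a replicate left out. It was 9.11e-05 to 0.00762 with each parent left out. The replicate block gave 0.00012 again, as it must in this balanced design, and is not counted as an alternative. The number of genes called between females (11) moved more: it was 18 with array medians removed, 18 from non-normalized values centred per array, 23 from quantile normalization, 3 from the brightest probe of each gene, 5 with the stage score as a covariate, 6 in block 3 alone, 3 in block 4 alone, 1 to 3 with either replicate left out, 7 to 16 with a parent left out, 7 without each gene's probe of smallest p, 20 from 64 cultures with a replicate block, 23 from 3 temperatures in 1 fit, and 5 by an exact permutation test per gene. The number called between males (12) was 5 with array medians removed, 3 from array-centred values, 4 from the median of probes, 4 from the brightest probe, 6 from detected probes, 7 with stage as a covariate, 3 with plate row and column as covariates, 0 in block 3 alone (limma, 14 with p below 0.05), 7 in block 4 alone, 0 to 2 with either replicate left out (limma, 16 with p below 0.05 where none was called), 1 to 14 with a parent left out (1 without male C4, 3 without female C4), 19 from 3 temperatures in 1 fit and 6 by the exact permutation test. Of the alternatives chosen after seeing the data, array medians removed together with stage gave 5 male calls, leaving out each gene's probe of smallest p gave 0 (limma, 17 with p below 0.05), and leaving out the probes with a departure gave 7. The brightest probe gave 1 gene with a departure, and array-centred values 1 gene with a female effect that differed at 18C. The median female share of variance (7.09%) was 11.9% from array-centred values, 13% from quantile normalization and 2.52% in block 3 alone, and the male share (10.6%) was 6.18% and 6.97% under the first and the second of these. Single blocks hold fewer crosses, and the cause of the changes under the alternatives was not tested. Replicate numbers did not pair cultures, so the replicate block carries no pairing.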
